A study of Mus musculus with 2 samples.

Results

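The insulin-like growth factor (IGF) axis was described in cultured mouse neural retinal progenitor cells (mNRPCs) and in mouse retina through 10 genes, which were taken by name from the 31253 genes of the table. These were the ligand genes Igf1 and Igf2, the receptor genes Igf1r and Igf2r, and the binding protein genes Igfbp2, Igfbp3, Igfbp4, Igfbp5, Igfbp6 and Igfbp7. All 10 were in the table, and all 10 reached 1 FPKM, a unit of transcript level that is corrected for transcript length and library size, in at least 1 library. The first library was made from mNRPCs of the C57BL/6 strain, which had been isolated from adult neural retina and cultured for 24 passages. According to the study's methods, such cells were grown on Matrigel with N2 and B27 supplements, bFGF (a fibroblast growth factor) and CHIR99021. The last of these inhibits the kinases encoded by Gsk3a and Gsk3b. Both supplements contain insulin. The second library was made from C57BL/6 retina tissue with no treatment named, and neither the age of its donors nor whether animals were pooled was given. With 1 library per group, no difference had a replicate check and no p-value was calculated. The files give no read totals, and the depth was estimated from the lowest values as 6.47e+06 fragments for mNRPCs and 5.08e+06 for retina.

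IGF1 and IGF2 are secreted peptides related to insulin, and both act through the tyrosine kinase receptor encoded by Igf1r, which signals to the PI3K/AKT and MAPK pathways. The protein of Igf2r, also known as the cation-independent mannose 6-phosphate receptor, takes up IGF2 for breakdown in lysosomes and sorts lysosomal enzymes. The binding proteins hold IGFs outside the cell, where they can lengthen their life, limit their access to the receptor or deliver them when cleaved, and Igfbp3 encodes the main carrier of IGFs in blood. In the retina IGFs are known for effects on neuron survival and on vessel growth.

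The IGF axis was nearly divided between the libraries. Igfbp3 and Igf2r stood high in mNRPCs, whereas Igf1, Igf2, Igfbp2, Igfbp4, Igfbp5 and Igfbp7 stood higher in retina and Igf1r was at a similar level in both. The log2 ratio used here is the log2 of (mNRPC FPKM + 1) over (retina FPKM + 1), and genes with a ratio of at least 1 in size are called higher or lower in mNRPCs. By this rule 2 of the 10 genes were higher, 6 were lower and 2 lay within 2-fold. Among the 13780 genes compared, 24.5% were higher and 30.0% were lower, so the share of higher genes was near the background. The median log2 ratio of the 10 genes was −2.23, against −0.12 over all genes compared.

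The binding protein genes share sequence that the choice by name did not use, and a stretch of it is shown here to describe the family. A link of this sequence to the levels was not tested. The products of this family have a cysteine-rich part near the start that binds IGFs. Within it, a stretch of 24 coding bases from GENCODE M21 transcripts (GRCm38) is given 5′ to 3′, with cysteine codons in capitals.
Igfbp2: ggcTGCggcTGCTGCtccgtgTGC
Igfbp3: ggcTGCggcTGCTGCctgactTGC
Igfbp4: ggcTGCggtTGTTGCgccactTGC
Igfbp5: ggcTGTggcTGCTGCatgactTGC
Igfbp6: ggcTGTacagaagccggaggcTGT
The Igfbp3 stretch lay in an exon at chr11:7213566-7213589 on the minus strand and began at codon 68 of 292, and that of Igfbp2 lay at chr1:72824778-72824801 on the plus strand and began at codon 67 of 305. Igfbp2, Igfbp3, Igfbp4 and Igfbp5 each had 4 cysteine codons here. Igfbp6 had only the outer 2. The search asked for a glycine codon right before the first cysteine codon and for fixed spacing, and Igfbp7 gave no match. This does not show that Igfbp7 lacks these cysteine codons, as a stretch with another first codon would be missed. A shorter stretch near the end, TGCtggTGTgtg, was the same in Igfbp2 to Igfbp6 and was not found in Igfbp7. Over the whole coding sequence the pairs of binding protein genes had 60.9% to 67.2% identical bases where they aligned. Positions with gaps were left out and no unrelated genes were aligned for comparison, so these values do not show how close the genes are.

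The ligand genes were near the limit of detection in mNRPCs. Igf1 (chr10:87858265-87937047) was at 0.0667 FPKM in mNRPCs and at 5.07 FPKM in retina. The mNRPC value came to an estimated 0.846 fragments and the retina value to 129 fragments. The mNRPC FPKM, though not the estimated fragments, was spread almost evenly over the 10 transcript rows of the gene. A level of 3 fragments was taken as the limit of detection, which for Igf1 was 0.236 FPKM in mNRPCs. Set at this limit, the mNRPC level was 21.5-fold below retina. The counting interval of the fold taken without the limit reached down to 11.9. Igf2 (chr7:142650768-142666816), a gene expressed from the paternal copy in most fetal tissues, was at 0.0371 FPKM in mNRPCs and at 8.09 FPKM in retina. Its mNRPC value came to an estimated 0.980 fragments and lay under the limit of 0.114 FPKM. Set at this limit, the mNRPC level was 71.2-fold below retina. The counting interval of the fold taken without the limit reached down to 38.1. The log2 ratios were −2.51 for Igf1 and −3.13 for Igf2. In retina Igf2 was the higher of the ligands, with a 95% counting interval of 6.97 to 9.34 FPKM against 4.24 to 6.03 for Igf1. These intervals, like the limit, cover counting error only and rest on an estimated depth.

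The receptor genes differed from each other in their pattern. Igf1r (chr7:67952257-68233668) was at 11.2 FPKM in mNRPCs and at 15.7 FPKM in retina, a log2 ratio of −0.45. The retina level was 1.40 times the mNRPC level, with a counting interval of 1.27 to 1.54. Over other settings the log2 ratio ran from −0.27 with curated rows only to −0.96 after rescaling to a common sum, within 2-fold throughout. Igf2r (chr17:12682406-12769706) was at 75.9 FPKM in mNRPCs (73.7 to 78.2) and at 4.23 FPKM in retina (3.65 to 4.87). This was 18.0-fold higher in mNRPCs, with a counting interval of 15.5 to 20.9, and the log2 ratio was 3.88. In mNRPCs the Igf2r level was 6.76 times that of Igf1r, and in retina the Igf1r level was 3.72 times that of Igf2r. The place of Igf1r above Igf2r in retina rests on the sum of its rows, most of it on predicted ones. Its curated row NM_010513 was at 1.22 FPKM in mNRPCs and 1.68 FPKM in retina, below Igf2r in both. This row held only 10.9% of the Igf1r level in mNRPCs and 10.7% in retina. The 1 row of Igf2r is curated and held 100% of its level. Curated rows alone thus drop most of Igf1r and none of Igf2r, so they cannot decide the order of the receptors. Airn, a noncoding RNA gene on the opposite strand that overlaps Igf2r, was at 15.7 FPKM in mNRPCs and 4.80 FPKM in retina. Whether strand was used in the quantification was not given, so reads of the shared region cannot be assigned to either gene with certainty.

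Igfbp3 (chr11:7206086-7215498) had the highest level of the members in mNRPCs when all its transcript rows were summed. It was at 298 FPKM in mNRPCs (289 to 307) and at 1.71 FPKM in retina (1.06 to 2.62), which is 174-fold higher in mNRPCs with a counting interval of 114 to 281, and a log2 ratio of 6.78. The mNRPC value rests on an estimated 4667 fragments and the retina value on 21.1. Igfbp3 ranked 285 among all genes by FPKM in mNRPCs and 11633 in retina. In mNRPCs 86.1% of the level lay on a predicted RefSeq transcript, XM_011243665, at 257 FPKM, and the curated transcript NM_008343 was at 41.3 FPKM. In retina these were at 0.959 and 0.753 FPKM. The curated transcript alone was 54.9-fold higher in mNRPCs and gave a log2 ratio of 4.59, so the direction did not depend on the predicted model while the size did. At 41.3 FPKM the curated transcript lay below Igf2r, which was then the highest member in mNRPCs.

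The other binding protein genes were lower in mNRPCs or within 2-fold. Igfbp2 (chr1:72824480-72852474), a binding protein known in developing brain and eye, was at 1.08 FPKM in mNRPCs (0.496 to 2.04) and 14.5 FPKM in retina (11.7 to 17.7), a log2 ratio of −2.90. Igfbp4 (chr11:99040005-99052655), whose product is cleaved by the protease PAPP-A, was at 0.396 FPKM (0.189 to 0.733) and 13.7 FPKM (12.1 to 15.4), a log2 ratio of −3.39. Igfbp5 (chr1:72858065-72874865), which lies next to Igfbp2 in the genome and encodes a protein that also binds extracellular matrix, was at 0.251 FPKM (0.119 to 0.464) and 5.48 FPKM (4.68 to 6.38), a log2 ratio of −2.37. For these 3 genes the retina level was 13.4, 34.5 and 21.9 times the mNRPC level, with counting intervals that stayed above 6.82, 18.4 and 11.5. The mNRPC values rest on an estimated 9.12, 9.82 and 9.74 fragments.

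Igfbp7 (chr5:77349240-77408045), the gene of a weakly IGF-binding protein made by endothelial cells among others, was at 1.86 FPKM in mNRPCs and 11.1 FPKM in retina (8.50 to 14.2). Its retina level was 5.95 times the mNRPC level, with a counting interval of 3.27 to 11.7, and the log2 ratio was −2.08. Igfbp6 (chr15:102144186-102149512), whose product prefers IGF2 over IGF1, was low in both libraries, at 0.354 FPKM (0.0603 to 1.12) and 1.49 FPKM (0.659 to 2.89). The mNRPC value came to an estimated 2.55 fragments and lay under the limit of 0.417 FPKM. The ratio of retina to mNRPC level was 4.21 with a counting interval of 0.957 to 29.2. The log2 ratio of Igfbp6 was −0.88, within 2-fold by the rule used here, and it passed the rule as lower at a pseudocount of 0.1 (−1.81), with both libraries set to 1 sum (−1.50) and with the mNRPC level at the limit (−1.84).

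**Figure D1:**
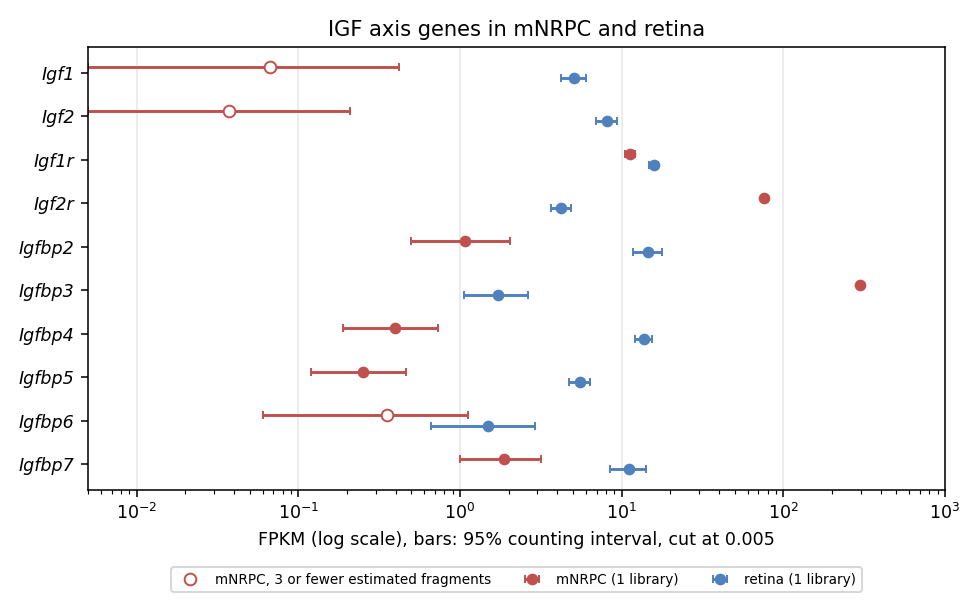
Level of each IGF axis gene in FPKM on a log axis, with red points for the mNRPC library, blue points for the retina library and bars for the 95% counting interval. Open points mark mNRPC values of 3 or fewer estimated fragments. The mNRPC points of Igfbp3 (298 FPKM) and Igf2r (75.9 FPKM) lie to the right of the retina points, and those of the other 8 genes lie to the left.

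Ordered by level, Igfbp3, Igf2r and Igf1r led in mNRPCs, and their counting intervals did not overlap. With curated rows only, Igf2r led before Igfbp3, and Igf1r at 1.22 FPKM lay below Igfbp7 at 1.86 FPKM. Igfbp7, Igfbp2, Igfbp4, Igfbp6, Igfbp5, Igf1 and Igf2 followed, each with an interval that overlapped the next, so the order of neighbours is not settled by these counts. The interval of Igfbp7 lay above those of Igfbp4, Igfbp5, Igf1 and Igf2. In retina Igf1r, Igfbp2, Igfbp4 and Igfbp7 led, with intervals that overlapped between neighbours, and that of Igfbp7 also overlapped Igf2, which came next. Below a gap followed Igfbp5, Igf1 and Igf2r, again with overlaps between neighbours, and Igfbp3 and Igfbp6 came last. Igf2r, Igfbp3 and Igfbp6 were thus the lowest in retina with all rows summed. This place of Igf2r and the top place of Igf1r do not hold with curated rows only, where Igf1r at 1.68 FPKM lay below Igf2r. That setting leaves out most of the Igf1r level in both libraries and none of the Igf2r level, so it cannot settle their places.

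The make-up of the binding protein transcripts was compared within each library, as shares do not change with scaling. The 6 genes summed to 302 FPKM in mNRPCs and to 47.9 FPKM in retina, a log2 ratio of 2.63. In mNRPCs Igfbp3 held 98.7% of this sum, and no other gene held more than 0.616%. In retina the sum was spread over several genes, with 30.2% on Igfbp2, 28.5% on Igfbp4, 23.1% on Igfbp7, 11.4% on Igfbp5, 3.57% on Igfbp3 and 3.11% on Igfbp6. Without Igfbp3 the sums were 3.94 FPKM in mNRPCs and 46.2 FPKM in retina. With curated rows only, Igfbp3 still held 91.3% of the mNRPC sum, but the sums were then close and the log2 ratio turned to −0.052. Set against these sums, the ligand genes together were at 0.104 FPKM in mNRPCs and 13.2 FPKM in retina.

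**Figure D2:**
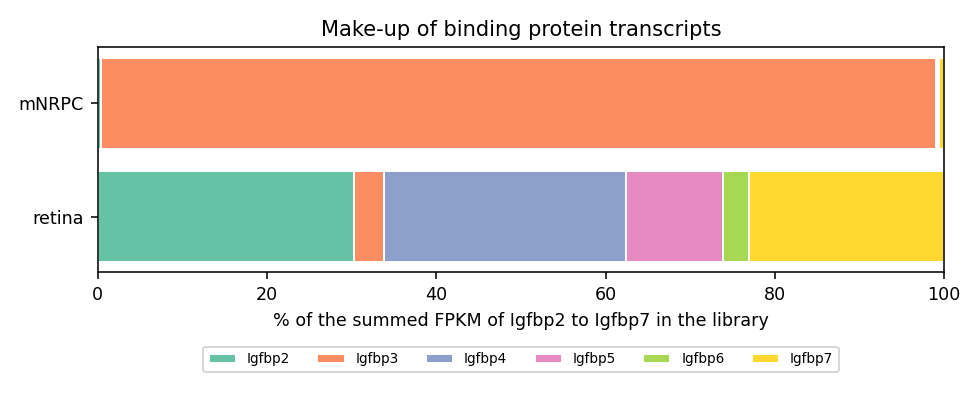
Share of each binding protein gene in the summed FPKM of Igfbp2 to Igfbp7, as stacked bars for the mNRPC and the retina library. Igfbp3 fills 98.7% of the mNRPC bar, while Igfbp2, Igfbp4 and Igfbp7 make up most of the retina bar.

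The transcript rows of the members with several rows were compared next. In retina 80.3% of the Igf2 level was on NM_010514, a model with 191 codons in its coding part. The curated Igf2 rows NM_001122736 and NM_001122737, with 180 codons and other start sites, were at 0.718 and 0.778 FPKM. For Igf1, 62.8% of the retina level was on NM_001111275, the longest curated model at 7052 bases, and the next row held 14.2%. In mNRPCs each of the 4 Igf2 rows and 10 Igf1 rows held about the same share, between 23.7% and 26.0% for Igf2 and between 9.29% and 10.5% for Igf1, on a total of less than 1 estimated fragment each, so no transcript can be named for the cells. Igf1r was spread over 6 rows in both libraries, with 36.1% of the mNRPC and 36.3% of the retina level on XM_006540645. Igfbp7 was on NM_008048, with 95.1% in mNRPCs and 100% in retina. Reads that fit several rows of a gene cannot be assigned to 1 row directly, which makes row values less certain than gene sums.

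**Figure D3:**
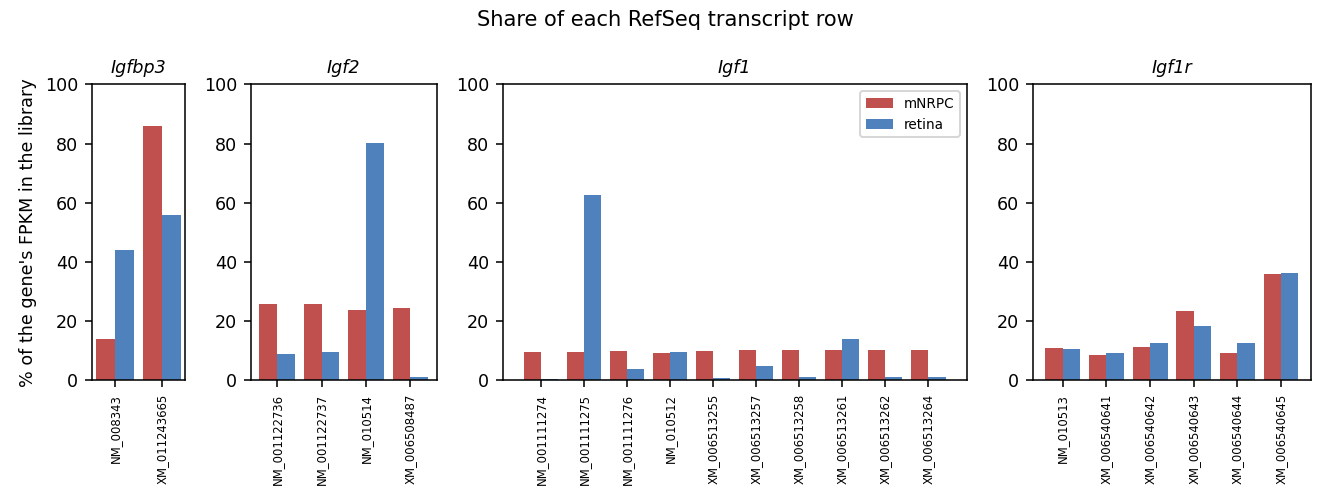
Share of each RefSeq transcript row in the FPKM of Igfbp3, Igf2, Igf1 and Igf1r, with red bars for mNRPCs and blue bars for retina. The Igfbp3 level of mNRPCs lies mainly on the predicted row (86.1%), the retina levels of Igf2 and Igf1 each lie mainly on 1 curated row, and Igf1r shows like shares in both libraries.

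The 250 bases before the RefSeq start were taken from assembly GRCm38.p6 for all 10 genes. They are shown for the 2 genes that were higher in mNRPCs and for Igfbp7 as a lower gene with a similar base composition. Each is given 5′ to 3′ on the strand of the gene, with CpG in capitals. The windows are chr11:7213924-7214173 (minus strand) for Igfbp3, chr17:12769707-12769956 (minus) for Igf2r and chr5:77408046-77408295 (minus) for Igfbp7.
Igfbp3: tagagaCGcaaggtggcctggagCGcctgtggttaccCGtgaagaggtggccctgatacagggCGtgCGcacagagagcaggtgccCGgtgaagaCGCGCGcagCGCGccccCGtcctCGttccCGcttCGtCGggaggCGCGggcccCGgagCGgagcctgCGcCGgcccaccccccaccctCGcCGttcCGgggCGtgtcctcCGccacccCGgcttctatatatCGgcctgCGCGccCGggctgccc
Igf2r: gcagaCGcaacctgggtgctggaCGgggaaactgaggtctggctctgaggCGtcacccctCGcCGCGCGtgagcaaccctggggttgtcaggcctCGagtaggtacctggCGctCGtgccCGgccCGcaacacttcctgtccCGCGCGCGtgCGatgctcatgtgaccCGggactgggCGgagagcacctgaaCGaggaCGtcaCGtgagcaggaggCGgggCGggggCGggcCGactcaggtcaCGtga
Igfbp7: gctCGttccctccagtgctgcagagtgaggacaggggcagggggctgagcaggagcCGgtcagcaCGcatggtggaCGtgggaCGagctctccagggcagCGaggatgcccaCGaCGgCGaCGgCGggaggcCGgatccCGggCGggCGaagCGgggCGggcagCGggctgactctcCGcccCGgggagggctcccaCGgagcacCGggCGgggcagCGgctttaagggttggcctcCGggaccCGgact
The windows held 32 CpG for Igfbp3, 27 for Igf2r and 26 for Igfbp7, against a median of 6 over 32851 promoter windows of the same length. Igf1r had 42 and Igfbp4 had 22, so windows rich in CpG were found before members that were higher, lower and within 2-fold. The GC box GGGCGG, searched on both strands, had 3 matches before Igf2r, 4 before Igfbp7, 2 before Igf1r, 3 before 1 of the starts of Igfbp2, and 1 and 2 before a pair of the starts of Igf2. The windows of the other members, Igfbp3 among them, held none, and 32.7% of all windows held at least 1. The letters CTTTGA, the core of sites for TCF/LEF factors, were found on either strand before Igf1r, Igf1 and 1 of the starts of Igf2 and not before Igfbp3 or Igf2r, with 13.8% of all windows holding them. The letters TATAAA had 1 match each before Igfbp4 and Igfbp6 and none in the windows shown (12.4% of all windows). The RefSeq gene Igfbp3 reaches upstream beyond the window shown, to base 7215498. The window belongs to the start of the curated transcript, and the start of the predicted one was not determined.

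Other genes of the pathway were read from a list of 42 genes, of which 33 reached 1 FPKM in a library. Of these, 9 were higher, 7 were lower and 17 lay within 2-fold, with a median log2 ratio of −0.082. Over all genes compared 24.5% were higher and 30.0% lower, so the counts of the list were near the background. Of the 7 lower genes, Pappa2, Grb10 and Grb14 were listed at 0 in mNRPCs. Insr, the gene of the insulin receptor, was at 10.5 FPKM in mNRPCs and 11.5 FPKM in retina, a log2 ratio of −0.12, and the insulin genes Ins1 and Ins2 were listed at 0 in both. The level of Igf1r was 1.07 times that of Insr in mNRPCs and 1.37 times in retina. Igfbp1, Igfbpl1 and Igfals, which encode further IGF-binding proteins and the subunit that joins IGF and its carrier in blood, reached only 0.317, 0.307 and 0.113 FPKM in retina and were listed at 0 in the cells.

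Of the genes for proteases and their inhibitors, Htra1, a secreted serine protease known to cleave some binding proteins, was at 358 FPKM in mNRPCs and 31.1 FPKM in retina, a log2 ratio of 3.48. Pappa and Pappa2, which encode proteases of Igfbp4 and Igfbp5 products, reached 0.522 and 1.40 FPKM in retina. In mNRPCs Pappa was at 0.0062 FPKM, under the limit of 3 fragments, and Pappa2 was listed at 0. Their inhibitors went apart, with a log2 ratio of −1.21 for Stc1 and of 1.51 for Stc2.

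Of the adaptor genes, Irs1 and Irs2, which link the receptors to PI3K, lay within 2-fold. Irs1 was at 5.60 FPKM in mNRPCs and 3.21 FPKM in retina (log2 ratio 0.65), and Irs2 at 4.63 and 4.41 FPKM (0.059). Shc1, which links the receptors to the MAPK pathway, was at 114 and 6.26 FPKM (3.98). Grb10, an imprinted gene whose product dampens signals from Insr and Igf1r, reached 19.1 FPKM in retina and was listed at 0 in mNRPCs. A value of 0 in this table can be a failed estimate, so no fold is given for Grb10. Further along the pathway are Gsk3a and Gsk3b, the kinase genes whose products CHIR99021 inhibits. Gsk3a was at 59.4 and 62.9 FPKM (−0.082) and Gsk3b at 9.71 and 17.6 FPKM (−0.79), both within 2-fold. Eif4ebp1, a translation repressor under mTOR, was at 155 and 1.51 FPKM (5.96). Of 10 genes for PI3K and AKT 3 were higher, among them Akt2 (1.82).

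**Figure D4:**
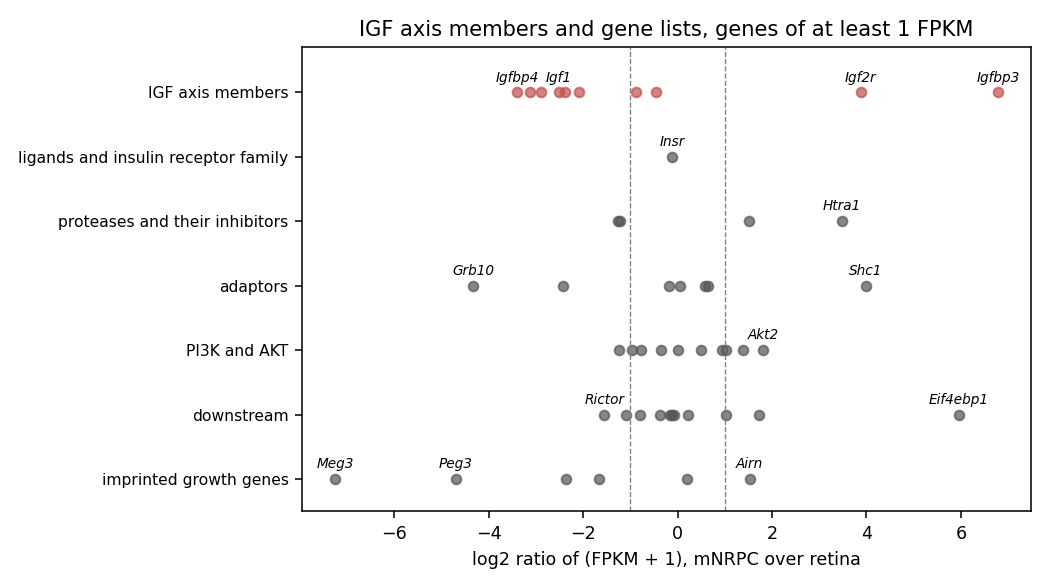
Log2 ratio of (FPKM + 1) of mNRPC over retina for the IGF axis genes (red) and for pathway and imprinted genes of at least 1 FPKM in a library (grey), with dashed lines at −1 and 1. Points to the right are higher in mNRPCs, and selected genes are named. Igfbp3 (6.78) and Eif4ebp1 (5.96) lie furthest to the right.

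Because Igf2, Igf2r and Grb10 are imprinted in mice, other imprinted growth genes were listed beside them. Of 8 listed genes 7 were in the matched table and 6 reached 1 FPKM, of which 1 was higher and 4 were lower (24.5% and 30.0% over all genes compared), with a median log2 ratio of −2.02. Meg3 was at 0.159 FPKM in mNRPCs and 175 FPKM in retina (log2 ratio −7.25) and Peg3 at 0.181 and 29.6 FPKM (−4.69). Mest was at 4.95 and 29.8 FPKM (−2.37) and Cdkn1c at 2.86 and 11.3 FPKM (−1.67). Plagl1, a transcription factor gene known to act on Igf2, was at 12.1 and 10.4 FPKM (0.20). Dlk1 was listed at 0 in both libraries.

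The genes with levels most like those of the leading members were found by distance over both values of log2(FPKM + 1), which describes only these 2 libraries. Lxn (287 and 1.83 FPKM), Cks1b (265 and 2.36) and Emp1 (239 and 2.43) were nearest to Igfbp3. Iqcb1 (11.2 and 15.8 FPKM), Sdhaf3 (11.1 and 15.6) and Kansl3 were nearest to Igf1r, the highest member in retina with all rows summed.

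Retina tissue holds many cell types, and fewer cells of a type and less RNA per cell cannot be told apart in a bulk library. Markers of several cell types were lower in mNRPCs, as were 30.0% of all genes compared. All 6 rod markers were lower in mNRPCs, with a summed level of 5.98 FPKM in mNRPCs and 12912 FPKM in retina, and all 6 Müller glia markers were lower too, with 68.4 and 2119 FPKM. Of 6 endothelial markers 4 were lower, summing to 2.72 and 42.6 FPKM, with Cdh5 and Cldn5 listed at 0 in mNRPCs. Of 6 pigment epithelium markers 5 were lower, summing to 0.299 and 37.4 FPKM, with Rpe65, Tyrp1, Dct and Mlana listed at 0 in mNRPCs and Rpe65 at 8.53 FPKM in retina. Markers listed at 0 count as lower here, although such a value can be a failed estimate, and Pmel (0.238 and 4.50 FPKM) was the one pigment epithelium marker among the 5 with a value above 0 in mNRPCs. Microglia and macrophage markers summed to 1.23 and 5.81 FPKM, and 5 of 6 were under 1 FPKM in retina. The part of these cells in the Igf1, Igf2 and binding protein levels was not tested.

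On the side of the mNRPC library, fibroblast markers summed to 455 FPKM, against 5.63 FPKM in retina. Nearly all of this was Col3a1 at 450 FPKM, while Col1a1 was at 1.35, Dcn at 1.96 and Col1a2 at 0.0843 FPKM, and Lum was listed at 0. Of 6 pericyte and smooth muscle markers 2 were higher and 1 was lower, with sums of 14.6 FPKM in mNRPCs and 15.1 FPKM in retina. Pdgfrb (4.49 and 1.24 FPKM) and Acta2 (10.1 and 4.39 FPKM) were higher, while Rgs5 was listed at 0 in mNRPCs and at 8.16 FPKM in retina. Kcnj8 and Abcc9 were listed at 0 in mNRPCs and lay under 1 FPKM in retina. Of 8 retinal progenitor markers Sox2 and Nes were higher, Pax6 and Six3 lay within 2-fold, and Rax and Six6 were listed at 0 in mNRPCs. The part of any of these cells in the Igfbp3 and Igf2r levels was not tested.

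**Figure D5:**
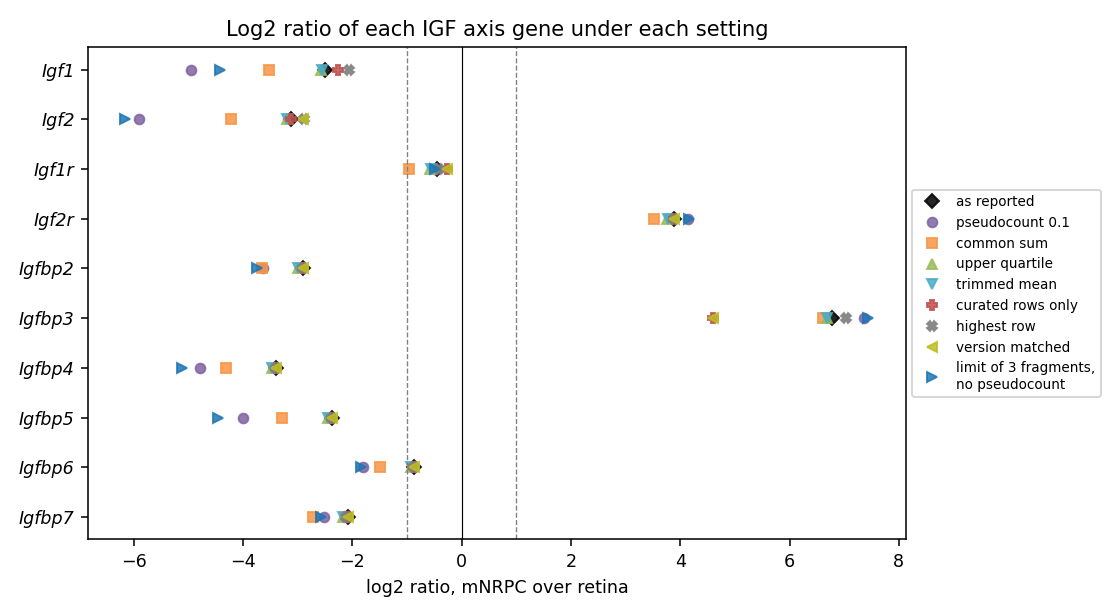
Log2 ratio of mNRPC over retina for each IGF axis gene as reported (black diamonds) and under 8 other settings for pseudocount, scaling and transcript rows, with dashed lines at −1 and 1. Each gene stayed on its side of 0 in every setting in which it had a value, and Igfbp3 ranged from 4.59 to 7.44.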

How the data were processed

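RNA sequencing values of 1 mNRPC library and 1 retina library were used, grouped by the labels. The deposited values were FPKM per RefSeq transcript, made by the authors. The study's methods name Bowtie 2 and eXpress, while the submitters' processing notes name TopHat2 2.0.10 and GRCm38.p3. The annotation release was not given in the sources used here. Which of these made the deposited values and how reads shared between rows were divided are not given in the sources used here.

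Of 106754 rows 74283 were matched without version to RefSeq symbols (GRCm38.p6) or GENCODE M21, holding 93.2% of the mNRPC and 89.9% of the retina FPKM, and rows of a symbol were summed. Coordinates are from RefSeq GRCm38.p6. Values below 1e-06 were read as 0. The log2 ratio was taken after adding 1, as in the study, for genes of at least 1 FPKM in a library. Depth was estimated from the level at which the lowest values times length gather, on single-row genes of at least 1500 bp, as 6.47e+06 fragments for mNRPCs and 5.08e+06 for retina. Other minimum lengths of 500 and 2500 bp gave 6.45e+06 to 6.47e+06 and 4.95e+06 to 5.64e+06. Rows of unknown length took the median of their gene. Counting intervals are exact Poisson intervals at 95%, and those of folds exact binomial intervals, on estimated fragments. The script was tested on simulated data. Python 3.11.15, pandas 2.3.3, numpy 2.4.6 and scipy 1.17.1 were used.

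The members and lists were chosen with earlier results of these data known. Named were all members, listed pathway genes with a log2 ratio of at least 2 in size and 5 FPKM, Insr, Irs1, Irs2 and Gsk3b, all imprinted genes found, and the 3 genes nearest to the highest member of each library. Further pathway genes were named after their values were seen. Alternatives covered the pseudocount, filter, scaling, rows, matching and threshold, and the limit of 3 fragments without pseudocount was added after seeing the data.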

Additional observations from a re-analysis of the deposited data

How the results depend on the processing

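Over the alternatives tried, the direction of each member's log2 ratio held wherever it had a value. Of 79 such values 51 lay within the counting interval and 28 moved in size. Always 2 members were higher, and 5 to 7 were lower, with Igfbp6 as the added one at a pseudocount of 0.1 (−1.81), after rescaling to a common sum (−1.50) and at the limit of 3 fragments (−1.84), where the median of the members was −3.16. Rescaling to a sum of 1e+06 moved the median of all genes to −0.68, the summed binding protein ratio to 2.13 and the pathway median to −0.61, and gave 6349 lower genes. Upper quartile scaling moved the summed ratio to 2.50 and use of the highest row to 2.44. With curated rows, and likewise with versioned accessions, the predicted Igfbp3 row was left out by construction, so the summed ratio turned to −0.052 and the Igfbp3 share fell to 91.3%. The pathway median lay near 0 and turned to 0.0097 at a minimum of 5 FPKM and to 0.062 with the highest row, and the cause was not tested. A threshold of 2 left 1547 higher and 1942 lower genes. Depth limits Igf1, Igf2 and Igfbp6 in mNRPCs to upper limits. No paired analysis was possible because only 1 library stood in each group.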
